A study of Mus musculus with 11 samples.

Results

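Type I interferons are secreted cytokines that alert cells to viral nucleic acid. They bind a receptor of paired chains, 1 of which is IFNAR1, and activate the kinases JAK1 and TYK2. These phosphorylate STAT proteins, among them STAT2, which joins IRF9 in a complex that enters the nucleus and binds a DNA element called ISRE, the interferon-stimulated response element. The genes it switches on make antiviral proteins, and IRF7 among them drives further interferon synthesis. In the brain, neurons, glia and vascular cells all carry the receptor, and a low basal interferon tone is known in the absence of infection.

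The genes described here were 9 of the 53465 gene identifiers counted. They were chosen by symbol for their part in this pathway, with earlier results of these data known. They were the receptor chain Ifnar1, the complex members Stat2 and Irf9, the amplifier Irf7, and the induced effectors Isg15, Ifit1, Ifit3, Ifitm3 and Bst2. All 9 were found once in the annotation and all passed the filter on low counts.

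RNA was sequenced from CRF1+ cells of the medial prefrontal cortex (mPFC) of adult male CRF1:GFP mice, in which GFP marks activity of the promoter of the corticotropin-releasing factor type 1 receptor. GFP-positive live cells were sorted by fluorescence and 1 library was made per mouse. The 6 naïve mice received air and the alcohol dehydrogenase inhibitor pyrazole. The 5 withdrawn mice received chronic intermittent ethanol vapor for 5 to 6 weeks, with ethanol and pyrazole injections, followed by 5 to 8 days of forced abstinence. All carried the reporter and all received pyrazole, so the groups differed by ethanol vapor, ethanol injection and abstinence together. The reporter follows promoter activity and not receptor protein, and GFP alone does not define a neuron.

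Libraries held 7351567 to 22244869 counts on genes. Crhr1, the receptor gene behind the reporter, was measured in every library at 92.7 ± 21.5 CPM (SD, n = 6) in the naïve group and 89.3 ± 33.6 CPM (SD, n = 5) in the withdrawn group, CPM being counts per 1000000 of the TMM-scaled library. Glutamatergic neuron markers summed to 1856 to 4374 CPM per mouse. Libraries from 2 mice stood apart. Naïve mouse 5 had the fewest genes with a count, 15585, and 25.0% of the 17093 tested genes had at most 3 counts there. Withdrawn mouse 4 had the lowest depth and the most genes with a count, 31830. In that library 48.1% of reads were in the class no feature, assigned to no gene in the counting. For withdrawn mice 3, 4 and 5, the treatment label and title gave ethanol but another label read control, and the description of the series names 5 control and 6 ethanol animals. Results without these 3 mice are given where they bear on a value, and they are from edgeR, since DESeq2 was not run in that setting. No label names a shared litter, batch or day.

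Most promoters of the response genes carried the letters of the element that defines the pathway. The ISRE core was searched for as GAAA, then 2 bases of any kind, then GAAA again, on either strand, in RefSeq promoter windows of build GRCm38.p6 that run from 250 bases before the gene start to 50 bases after it. This core was present in 6 of the 9 genes (66.7%), against 3.99% of 27025 genes and 3.44% of 32851 windows of the same length. It was found in Stat2, Isg15, Ifit1, Ifit3, Ifitm3 and Bst2, and these letters were not in the windows of Ifnar1, Irf9 and Irf7. The stretches that hold the matches are shown because the genes they precede are the ones whose levels are compared next, each 5′ to 3′ on the gene's strand with the matched letters in capitals.
Stat2: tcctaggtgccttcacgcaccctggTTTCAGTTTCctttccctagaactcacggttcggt
Isg15: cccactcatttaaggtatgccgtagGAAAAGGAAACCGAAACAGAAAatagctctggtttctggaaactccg
Ifit1: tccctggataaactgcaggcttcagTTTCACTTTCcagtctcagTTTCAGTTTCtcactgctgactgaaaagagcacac
Ifit3: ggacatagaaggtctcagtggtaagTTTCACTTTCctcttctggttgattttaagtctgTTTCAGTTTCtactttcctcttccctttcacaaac
Ifitm3: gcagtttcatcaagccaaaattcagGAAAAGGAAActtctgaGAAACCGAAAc
Bst2: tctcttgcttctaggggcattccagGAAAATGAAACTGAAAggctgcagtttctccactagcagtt

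The Stat2 stretch lies at chr10:128270251-128270310 on the plus strand and holds 1 match. The Isg15 stretch lies at chr4:156200850-156200921 on the minus strand and holds 3 matches that overlap. Ifit1 and Ifit3 lie close together on chromosome 19, at chr19:34640760-34640838 and chr19:34583348-34583441 on the plus strand, and each holds 2 separate matches with the same letters, TTTCACTTTC and TTTCAGTTTC. The Ifitm3 stretch lies at chr7:141010715-141010767 on the minus strand, and both of its matches fall just after the gene start rather than before it. The Bst2 stretch lies at chr8:71537562-71537627 on the minus strand and holds 2 overlapping matches.

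A related element, GAS, which binds pairs of STAT proteins, was searched for as TTCNNNGAA, which reads alike on both strands. It was found in the windows of Ifnar1, Ifitm3 and Bst2, or 3 of 9 genes, against 9.55% of all genes. In Bst2 and Ifitm3 the windows therefore held both kinds of match, and in both the GAS match overlapped an ISRE match. A match describes the letters and is not evidence of binding in these cells.

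No response gene passed the thresholds for a difference between withdrawn and naïve mice. A call needed an adjusted p no higher than 0.05 and a change beyond 0.6 on the log2 scale. With edgeR's quasi-likelihood test 0 of 9 were called, beside 0.00585% of all tested genes, and DESeq2 called 0 of 9, beside 1.66%. At an unadjusted p under 0.05, edgeR gave 2 of 9 (Ifitm3 and Bst2), beside 7.22% of all genes. Both were higher in withdrawn mice, beside 5.00% of all genes in that direction, and DESeq2 gave 2 of 9 (Ifit1 and Bst2), beside 10.6%. The log2 fold change was above 0 for 8 of 9 genes, beside 51.8% of all genes, and its median was 1.08, beside 0.02. The count at an unadjusted p under 0.05 by edgeR was 0 of 9 without withdrawn mouse 4, 0 without withdrawn mouse 1 and 0 without the 3 mice with conflicting labels. It was also 0 without naïve mouse 2, 3 or 6, where the edgeR p of Bst2 was 0.0591, 0.0658 and 0.0549. The direction depended on the gene and on single mice. Without withdrawn mouse 4, 5 of 9 genes were above 0 (Ifnar1, Stat2, Ifit1, Ifitm3 and Bst2) and the median was 0.08. Without naïve mouse 5, 7 of 9 were above 0, with a median of 0.95. Without both mice, a setting chosen after seeing the data, 3 of 9 were above 0 and the median was -0.08.

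The groups overlapped for every one of the 9 genes, which was also the usual case over all tested genes. They were apart for 0.690% of tested genes with withdrawn mice higher and 0.257% with withdrawn mice lower. Withdrawn mouse 4 was the highest of the 11 mice for 7 of the 9 genes, beside 16.5% of tested genes. The exceptions were Ifnar1 and Irf7.

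Ifnar1 (ENSMUSG00000022967, chromosome 16, 91485238 to 91507441, plus strand, GRCm38) codes for the receptor chain without which type I interferon is not sensed. Its naïve levels ran from 0.0677 CPM through a median of 39.3 to 65.4 CPM. Withdrawn mice 1 to 5 had 47.1, 41.9, 36.4, 40.6 and 40.5 CPM. The withdrawn values lay close together, within the naïve range, and the naïve low value was a single count in mouse 5. edgeR gave a log2 fold change of 0.18 ± 0.72 (SE), with an adjusted p of 0.982 by edgeR. Without naïve mouse 5 it was -0.08.

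Stat2 (ENSMUSG00000040033, chromosome 10, 128270559 to 128292849, plus strand) codes for the STAT protein particular to interferon complexes. In naïve mice the level ran from 24.2 through a median of 32.9 to 54.3 CPM, and withdrawn mice 1 to 5 had 20.9, 42.4, 46.9, 62.2 and 41.8 CPM. The lowest and the highest of all 11 mice were both withdrawn. Withdrawn and naïve mice differed by a log2 fold change of 0.24 ± 0.29 (SE), with an adjusted p of 0.921 by edgeR, and it was 0.08 without withdrawn mouse 4 and -0.26 without the 3 mice with conflicting labels.

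Irf9 (ENSMUSG00000002325, chromosome 14, 55603571 to 55610030, plus strand) codes for the subunit that gives the complex its DNA specificity. The annotated exons of Irf9 share 123 bases with Rnf31. Levels in naïve mice ran from 6.87 through a median of 11.6 to 22.8 CPM, and withdrawn mice 1 to 5 had 13.9, 7.05, 15.1, 34.7 and 11.3 CPM. Of the 5 withdrawn mice, 1 was above the highest naïve mouse, and this was mouse 4. The fitted log2 fold change was 0.38 ± 0.45 (SE), with an adjusted p of 0.918 by edgeR, and it was -0.08 without mouse 4.

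Irf7 (ENSMUSG00000025498, chromosome 7, 141262706 to 141266481, minus strand) codes for the factor that amplifies interferon synthesis, and it was the gene with a fold change below 0. On the other strand, Phrf1 shares 45 of its exonic bases. The naïve mice went from 2.97 through a median of 4.18 to 6.98 CPM, and withdrawn mice 1 to 5 had 1.66, 8.62, 1.03, 7.01 and 1.06 CPM. The withdrawn mice fell into 3 values below every naïve mouse and 2 values above every naïve mouse. With edgeR the log2 fold change came to -0.23 ± 0.70 (SE), with an adjusted p of 0.972. When each mouse was left out it ran from -0.79, without withdrawn mouse 2, to -0.0029, without withdrawn mouse 5, and limma voom with quality weights gave -1.22. A mean difference describes such values poorly, since the withdrawn SD of 3.65 CPM exceeded the naïve SD of 1.56 CPM.

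Isg15 (ENSMUSG00000035692, chromosome 4, 156199424 to 156200818, minus strand) codes for a ubiquitin-like protein that is linked to other proteins and also secreted. Naïve values ran from 0.757 through a median of 2.497 to 3.47 CPM, and withdrawn mice 1 to 5 had 3.03, 0.112, 2.76, 17.3 and 0.920 CPM. Withdrawn mouse 4 was 6.94 times the median of the other 10 mice, and the remaining withdrawn mice all lay under the highest naïve mouse. Withdrawn mouse 2 had a single count. This gave a log2 fold change of 1.08 ± 0.94 (SE), with an adjusted p of 0.879 by edgeR, and it was -0.41 without mouse 4. The mean of log2 CPM was 1.11 in naïve and 1.09 in withdrawn mice, the opposite direction to the fitted fold change.

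Ifit1 (ENSMUSG00000034459, chromosome 19, 34640871 to 34650009, plus strand) codes for a protein that binds viral RNA lacking host cap methylation. Among naïve mice, values ran from 0 through a median of 5.36 to 10.3 CPM, and withdrawn mice 1 to 5 had 22.3, 11.6, 4.72, 102.9 and 0.141 CPM. Here 3 of 5 withdrawn values exceeded all naïve ones, and withdrawn mouse 5, with 2 counts, was below all naïve mice but mouse 5, which had none. Between the groups, the log2 fold change was 2.39 ± 1.17 (SE), the highest of the 9, with an adjusted p of 0.713 by edgeR and 0.375 by DESeq2. Without withdrawn mouse 4 it was 0.84, without the 3 mice with conflicting labels 1.62, and with limma voom and sample quality weights -0.25.

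Ifit3 (ENSMUSG00000074896, chromosome 19, 34583531 to 34588731, plus strand) codes for a partner that stabilises IFIT1 on RNA. It has a near-identical neighbour, Ifit3b, and reads that fit both would not be counted as unique, so its level is uncertain. In naïve mice the level ran from 0 through a median of 5.77 to 9.34 CPM, and withdrawn mice 1 to 5 had 10.4, 0, 6.07, 41.9 and 3.11 CPM. Each group held 1 mouse without a count, naïve mouse 5 and withdrawn mouse 2. edgeR gave a log2 fold change of 1.23 ± 1.15 (SE), with an adjusted p of 0.892 by edgeR, and it was -0.09 without withdrawn mouse 4.

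Ifitm3 (ENSMUSG00000025492, chromosome 7, 141009586 to 141010770, minus strand) codes for a membrane protein that blocks fusion of enveloped viruses in endosomes. Levels in naïve mice ran from 0 through a median of 19.9 to 65.5 CPM, and withdrawn mice 1 to 5 had 143.1, 7.84, 81.0, 282.7 and 33.5 CPM. Mice 1, 3 and 4 of the withdrawn group were above every naïve mouse, and mice 2 and 5 were within the naïve range. Withdrawn and naïve mice differed by a log2 fold change of 2.18 ± 1.01 (SE), with an unadjusted p of 0.0491 and an adjusted p of 0.690 by edgeR. The exact permutation test over all splits of the mice gave a two-sided p of 0.104. The fold change stayed above 0 when each mouse in turn was left out, and was 1.45 without withdrawn mouse 4. Without the 3 mice with conflicting labels it was 1.61, with an unadjusted p of 0.247 by edgeR.

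Bst2 (ENSMUSG00000046718, chromosome 8, 71534255 to 71537456, minus strand) codes for tetherin, which holds budding virus particles on the cell surface. The naïve mice went from 0.537 through a median of 3.29 to 7.99 CPM, and withdrawn mice 1 to 5 had 16.4, 2.13, 6.59, 28.5 and 5.52 CPM. Withdrawn mice 1 and 4 were above every naïve mouse, and the highest naïve value was that of mouse 5, the library with no count for Ifit1, Ifit3 and Ifitm3. The fitted log2 fold change was 1.76 ± 0.75 (SE), with an unadjusted p of 0.0350 and an adjusted p of 0.644 by edgeR, and an adjusted p of 0.250 by DESeq2. The exact permutation test gave a two-sided p of 0.0909, and the fold change was 1.11 without withdrawn mouse 4. Without the 3 mice with conflicting labels it was 1.38, with an unadjusted p of 0.215 by edgeR.

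**Figure D1:**
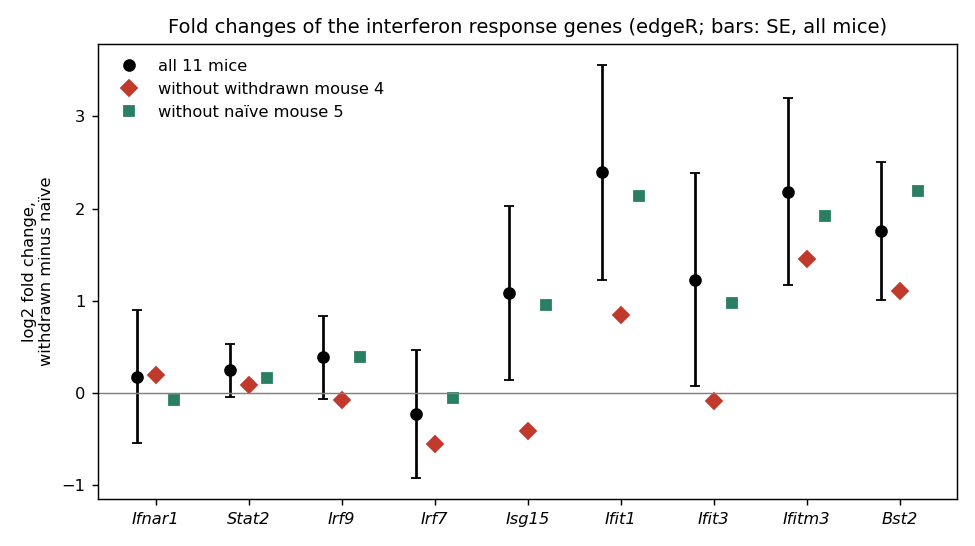
Fitted log2 fold change, withdrawn minus naïve, of each response gene with its SE in all 11 mice (circles), without withdrawn mouse 4 (diamonds) and without naïve mouse 5 (squares). Leaving out withdrawn mouse 4 moves Isg15 from 1.08 to -0.41 and Ifit1 from 2.39 to 0.84, whereas Ifitm3 and Bst2 stay above 1.

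Levels of the induced effectors were spread widely over mice. The 5 effectors summed to 9.14 to 85.5 CPM in naïve mice and to 195, 21.7, 101, 473 and 43.2 CPM in withdrawn mice 1 to 5. Withdrawn mouse 4 supplied 71.8% of the summed withdrawn CPM of Isg15, 72.6% of Ifit1, 68.1% of Ifit3, 51.6% of Ifitm3 and 48.2% of Bst2. For Stat2 its part was 29.0%. Its level was 16.8 times the median of the other 10 mice for Ifit1, 9.83 times for Ifitm3 and 2.93 times for Irf9, but 1.599 times for Stat2 and 1.01 times for Ifnar1. Naïve mouse 5 had at most 3 counts for 4 of the 9 genes (Ifnar1, Ifit1, Ifit3 and Ifitm3), beside 25.0% of all tested genes, and yet the highest naïve levels of Bst2 and Irf7.

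Compared per kilobase of exon in naïve mice, Ifitm3 was the most abundant at 35.6 ± 35.8 CPM per kb (SD, n = 6). Ifnar1 at 6.15 ± 3.72 and Stat2 at 6.10 ± 1.86 CPM per kb followed, then Bst2 at 3.86, Isg15 at 3.01, Ifit3 at 3.00, Irf9 at 2.33, Ifit1 at 2.03 and Irf7 at 1.20 CPM per kb. No gap between neighbours in this order exceeded their SD.

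Markers of other cells that a GFP sort of dissociated cortex could hold were read beside these values. In bulk RNA, fewer cells of a type and less RNA per cell cannot be told apart. Fibroblast markers summed to 0.0677 to 76.1 CPM in naïve mice and to 1393, 24.2, 691, 981 and 230 CPM in withdrawn mice 1 to 5, and 8 of 8 tested of the 10 listed had a fold change above 0, with 4 called by DESeq2. The withdrawn mice with the highest fibroblast sums, 1, 3 and 4, were those with the highest Ifitm3 and Bst2 in that group. Withdrawn mouse 2 was the lowest of the withdrawn mice in all 3 measures. The naïve mice did not follow this pattern. The highest naïve Ifitm3, 65.5 CPM, was in mouse 1, with a fibroblast sum of 8.48 CPM. Naïve mouse 3, with the highest naïve fibroblast sum, 76.1 CPM, had 3.47 CPM of Ifitm3. The highest naïve Bst2, 7.99 CPM, was in mouse 5, with a fibroblast sum of 0.0677 CPM. Astrocyte markers summed to 94.2 to 347 CPM in naïve mice and to 690, 75.2, 504, 811 and 327 CPM in withdrawn mice 1 to 5. Over those 5 mice this is the order of both Ifitm3 and Bst2, but the naïve mice did not share it. Naïve mouse 2 had the highest naïve astrocyte sum, and naïve mouse 1 the highest naïve Ifitm3. Of 8 astrocyte markers 7 were tested, 2 with a fold change above 0 and 5 below. The pair above 0 were the connexin genes Gja1, at a log2 fold change of 3.61, and Gjb6, at 4.36, of which DESeq2 called Gjb6. Their means were the highest of the list in withdrawn mice, 187 and 186 CPM, against 15.3 and 9.01 CPM in naïve mice. The next highest withdrawn mean was that of Aldoc, 64.9 CPM, against 106 CPM in naïve mice. Endothelial markers summed to 611, 598, 113, 42.2, 14.2 and 901 CPM in naïve mice 1 to 6. Ifitm3 in those mice was 65.5, 24.1, 3.47, 15.7, 0 and 36.2 CPM, so naïve mice 1, 2 and 6 were highest in both. Withdrawn mouse 4 was also highest of its group in both, but withdrawn mouse 2, next in endothelial sum at 152 CPM, had the lowest withdrawn Ifitm3. The highest naïve Bst2 was in mouse 5, with the lowest endothelial sum. The part of fibroblasts, astrocytes and endothelial cells in the result was not tested.

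Withdrawn mouse 4 had the highest sum of astrocyte, oligodendrocyte precursor (32.2 CPM) and microglia markers. It also had the highest sums of mural markers, 240 CPM, and of markers of leukocytes other than microglia, 39.8 CPM against at most 11.5 CPM elsewhere. Its endothelial sum was 748 CPM, against 46.3 to 152 CPM in the other withdrawn mice and 14.2 to 901 CPM in naïve mice. Its glutamatergic sum of 1856 CPM was the lowest of 11, the others running from 2775 to 4374 CPM. Of the mural list 6 of 8 genes were tested, with 3 fold changes above 0 and 3 below; of the endothelial list 10 of 10, with 2 above and 8 below; and of the leukocyte list 2 of 8, both above. Naïve mouse 5 was lowest for endothelial, mural and fibroblast markers, at 14.2, 0.203 and 0.0677 CPM. The part of these cells in the levels of the response genes was not tested.

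Microglia markers were low, at 15.3 to 26.6 CPM in naïve and 12.5 to 48.2 CPM in withdrawn mice, and highest in withdrawn mouse 4. Of 10 markers 5 were tested, 3 with a fold change above 0 and 2 below. The defining marker P2ry12 had counts in 3 of 11 mice, 23 counts in all, and Cx3cr1 in 7, with 45 counts in all. Tmem119 was the 1 microglia marker with an unadjusted p under 0.05 by edgeR, at 0.543 ± 0.822 CPM in naïve and 7.39 ± 5.11 CPM in withdrawn mice, a log2 difference of 3.75 with an adjusted p of 0.558.

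**Figure D2:**
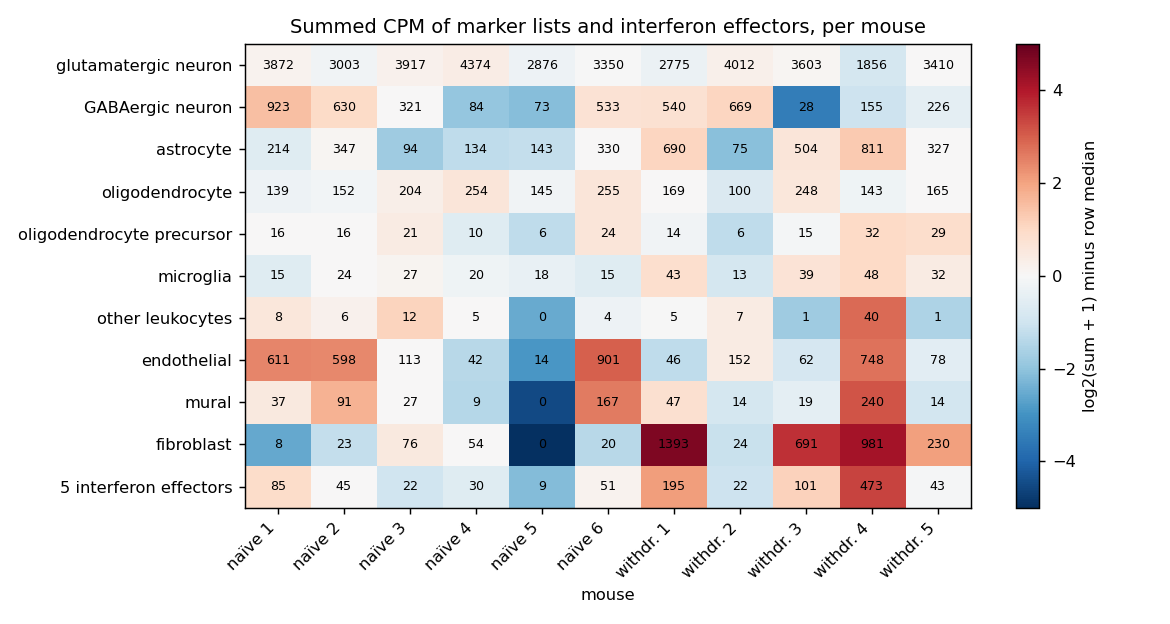
Summed CPM of each marker list and of the 5 interferon effectors (Isg15, Ifit1, Ifit3, Ifitm3, Bst2) in each mouse; numbers are sums in CPM and colors give log2(sum + 1) minus the median of the row. The effector row is highest in withdrawn mouse 4 at 473 CPM, where the astrocyte, oligodendrocyte precursor, microglia, other leukocyte and mural rows also peak, and lowest in naïve mouse 5.

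The wider pathway was described with lists of 104 other genes, 71 of which passed the filter. The log2 fold change was above 0 for 64 and below 0 for 7, with a median of 1.10, beside 51.8% above 0 and a median of 0.02 for all genes. At an unadjusted p under 0.05, 10 were higher and 0 lower, beside 5.00% and 2.22% of all genes. With edgeR, 0 of 71 passed the thresholds. DESeq2 called 5 of the 80 for which it gave an adjusted p, all higher, beside 1.57% of all genes in that direction. Without withdrawn mouse 4, 61 of 73 tested were above 0, with a median of 0.56, beside 50.1% of all genes. Without the 3 mice with conflicting labels, 64 of 82 tested were above 0, with a median of 0.83, beside 50.4% of all genes. Withdrawn mouse 4 was the highest mouse for 38 of the 71 genes (53.5%), beside 16.5%, and naïve mouse 5 had at most 3 counts for 35 (49.3%), beside 25.0%.

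Interferon genes themselves were close to absent. Of 18 type I interferon ligand genes, 8 had no count in any mouse and 15 had at most 3 counts in all 11 mice together, and none passed the filter on low counts. Ifnk was the most abundant, with 14 counts in all 11 libraries. These are limits on reads and not on protein, since interferon can reach a cell from elsewhere.

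Receptor and signalling genes were higher in 10 of 11 tested, with a median log2 fold change of 0.40, and none passed an unadjusted p under 0.05. Irf5, a factor that acts below Toll-like receptors, had 0.568 ± 0.578 CPM in naïve and 2.31 ± 3.00 CPM in withdrawn mice, a log2 difference of 2.01 with an adjusted p of 0.803 by edgeR. The most abundant was Jak1, at 241 ± 72.1 CPM in naïve and 271 ± 55.9 CPM in withdrawn mice.

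Among nucleic acid sensors, 8 of 9 tested had a fold change above 0, beside 51.8% of all genes, with a median of 1.36. Naïve mouse 5 had at most 3 counts for 7 of these 9 genes (77.8%), beside 25.0% of all genes. Without both naïve mouse 5 and withdrawn mouse 4 the median was 0.74. Myd88, the adaptor of most Toll-like receptors, had 6.13 ± 4.11 CPM in naïve and 15.7 ± 8.40 CPM in withdrawn mice, a log2 difference of 1.36 ± 0.50 (SE) and an adjusted p of 0.495 by edgeR. Myd88 was called by DESeq2 without naïve mouse 5, at a log2 fold change of 1.83 and an adjusted p of 0.000413. That setting was chosen after seeing the data and called 420 genes over all genes. Tbk1, the kinase that activates interferon regulatory factors, had 102 ± 11.2 CPM in naïve and 80.3 ± 15.9 CPM in withdrawn mice, a log2 difference of -0.34 and an adjusted p of 0.705 by edgeR. It was also the most abundant of the sensing genes.

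All 7 tested negative regulators had a fold change above 0, with a median of 0.44, and 5 of 7 without withdrawn mouse 4. Socs3, an inhibitor of JAK kinases, had 4.68 ± 4.41 CPM in naïve and 30.3 ± 45.5 CPM in withdrawn mice, a log2 difference of 2.69 and an adjusted p of 0.644 by edgeR. Withdrawn mouse 4, at 110.7 CPM, supplied 73.0% of its withdrawn sum. Pias1, which restrains STAT proteins and was the most abundant of this list, had 120 ± 24.1 CPM in naïve and 148 ± 24.9 CPM in withdrawn mice, with an adjusted p of 0.779 by edgeR. Usp18, which removes ISG15 from proteins and restrains the receptor, was chosen after its values were seen, since it is the enzyme that acts on ISG15: withdrawn mouse 4 had 25.9 CPM, or 79.6% of the withdrawn sum, and its log2 fold change went from 1.23 to -0.75 without that mouse.

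Antiviral effectors were tested for 34 of 42 genes. The fold change was above 0 for 30, with a median of 1.27, and 7 had an unadjusted p under 0.05, all higher, beside 51.8% above 0 and 5.00% higher at that p for all genes. Without withdrawn mouse 4, 28 of 35 were above 0 and the median was 0.66. The most abundant, Shisa5, had 119 ± 39.2 CPM in naïve and 107 ± 26.0 CPM in withdrawn mice, with an adjusted p of 0.949 by edgeR. DESeq2, which applies its own filter, called 4 of the 42 listed, beside 1.57% of all genes called higher. All 4 were higher in withdrawn mice: Apobec3, Lgals3bp, Ube2l6 and Ifi27. A gene of class I antigen presentation, Tapbp, was the fifth gene called, and in that list 9 of 10 tested genes were above 0, with a median of 1.12. None of the 5 passed with edgeR, where adjusted p ran from 0.105 to 0.256. Without the 3 mice with conflicting labels, their edgeR adjusted p ran from 0.647 to 0.691. Their log2 fold changes there ran from 1.08 for Tapbp to 4.26 for Apobec3. With edgeR and no low-count filter, 3 passed (Apobec3, Lgals3bp and Tapbp).

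**Figure D3:**
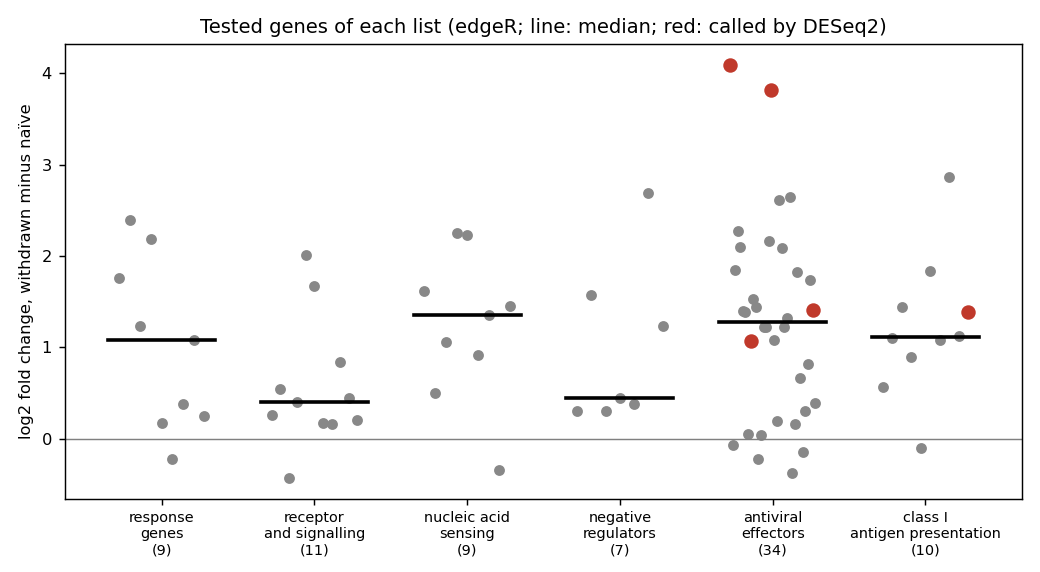
Log2 fold change, withdrawn minus naïve, of every tested gene in each list by edgeR, with the number of tested genes under each name; lines are medians and red points are the 5 genes called by DESeq2. Most points lie above 0 in each list, and the red points are Apobec3, Lgals3bp, Ube2l6, Ifi27 and Tapbp.

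Apobec3, a cytidine deaminase that restricts retroviruses, differed most among the 5. Naïve values ran from 0 through a median of 0.607 to 1.76 CPM, and withdrawn mice 1 to 5 had 13.3, 20.8, 14.1, 22.4 and 2.83 CPM. The groups were apart, with all withdrawn mice higher, and withdrawn mouse 4 did not stand apart. With edgeR the log2 fold change came to 4.10 ± 0.90 (SE), with an adjusted p of 0.129 by edgeR and 2.24e-05 by DESeq2, and 0.00113 by DESeq2 without withdrawn mouse 4. Its promoter windows held 1 ISRE match. Its exons overlap those of D730005E14Rik by 676 bases on the same strand and those of Cbx7 by 100 bases on the other.

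Ifi27, a mitochondrial interferon-induced protein, was the other gene with groups apart. Among naïve mice, values ran from 23.6 through a median of 32.7 to 38.5 CPM, and withdrawn mice 1 to 5 had 88.2, 57.3, 58.3, 88.9 and 41.0 CPM. This gave a log2 fold change of 1.07 ± 0.23 (SE), with an adjusted p of 0.129 by edgeR, 0.00240 by DESeq2 and 0.0244 by DESeq2 without withdrawn mouse 4. The groups were apart with withdrawn mice higher for 2 of the 71 tested pathway genes, beside 0.690% of all tested genes. The exact permutation p of Ifi27 and of Apobec3 was 0.00433 two-sided, the smallest that 6 against 5 mice can give. This p is fixed once the groups are apart, and both genes were named because DESeq2 called them, so it adds no further support.

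Tapbp codes for tapasin, which loads peptides onto class I molecules. In naïve mice the level ran from 33.7 through a median of 50.4 to 67.8 CPM, and withdrawn mice 1 to 5 had 156.6, 58.7, 125.3, 215.9 and 93.4 CPM. Withdrawn mouse 2 lay within the naïve range and the other 4 above it. Between the groups, the log2 fold change was 1.39 ± 0.29 (SE), with an adjusted p of 0.105 by edgeR, 0.00399 by DESeq2 and 0.0352 by DESeq2 without withdrawn mouse 4. Its exons overlap those of Zbtb22 by 149 bases on the same strand and those of Gm19412 by 904 bases on the other.

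Ube2l6 codes for the enzyme that carries ISG15 to its targets. Levels in naïve mice ran from 6.35 through a median of 8.44 to 10.3 CPM, and withdrawn mice 1 to 5 had 21.3, 37.0, 16.6, 27.3 and 9.20 CPM. Its highest mouse was withdrawn 2, in which Isg15 itself had 1 count. edgeR gave a log2 fold change of 1.41 ± 0.38 (SE), with an adjusted p of 0.256 by edgeR and 0.00699 by DESeq2, and the call was lost without withdrawn mouse 4, at 0.0576 by DESeq2.

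Lgals3bp codes for a secreted glycoprotein that binds galectins. The naïve mice went from 0 through a median of 5.15 to 11.8 CPM, and withdrawn mice 1 to 5 had 157.1, 5.15, 61.2, 126.1 and 19.9 CPM. Withdrawn and naïve mice differed by a log2 fold change of 3.82 ± 0.91 (SE), with an adjusted p of 0.167 by edgeR, 0.00315 by DESeq2 and 0.0396 by DESeq2 without withdrawn mouse 4. Its 5 withdrawn values stand in the same order as the fibroblast marker sums of those mice, 1393, 24.2, 691, 981 and 230 CPM, whose part in the result was not tested. The other called genes did not stand in that order. Withdrawn mouse 2, with a fibroblast sum of 24.2 CPM, had 20.8 CPM of Apobec3 and 37.0 CPM of Ube2l6. Ifi27 was lowest in withdrawn mouse 5. Tapbp was highest in withdrawn mouse 4 and lowest in withdrawn mouse 2, in the order of Ifitm3, Bst2 and the astrocyte sums. The part of other cells in these levels was not tested.

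**Figure D4:**
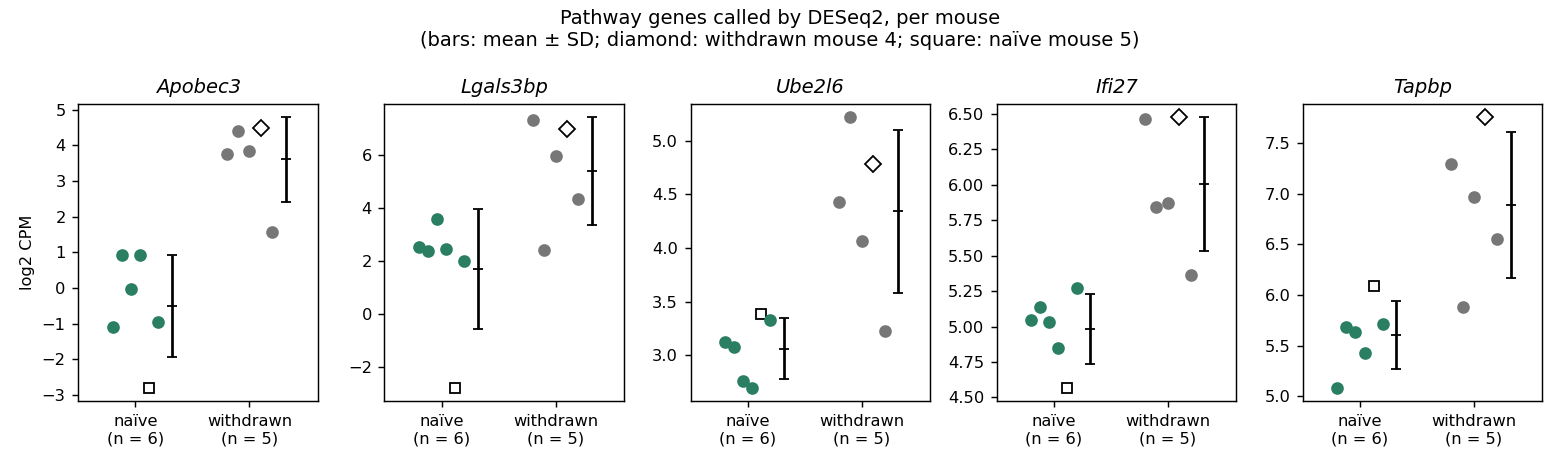
Level of the 5 pathway genes called by DESeq2 in each mouse, in log2 CPM; bars give the mean and SD, the diamond is withdrawn mouse 4 and the square is naïve mouse 5. All 5 withdrawn mice lie above all 6 naïve mice for Apobec3 and Ifi27, and 4 of 5 do for Lgals3bp, Ube2l6 and Tapbp.

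ISRE matches were also counted in the pathway lists. Of the 4 called genes with a promoter window, 1 held a match, whereas 6 of the 9 response genes held one and 0 were called. Among all 83 pathway genes with a window, 32 held a match (38.6%).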

How the data were processed

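Per the labels and the study's methods, the authors sorted mPFC CRF1+ cells, made cDNA libraries from 160 pg of RNA with 14 and 12 PCR cycles, read 75 nt single ends, trimmed with cutadapt, aligned with STAR and counted reads per gene with HTSeq on GRCm38 (Ensembl release 91). The strand setting is not given in the sources used here. The deposited values are raw counts per gene and mouse. Rows that name no gene (no feature 5.77% to 48.1% of a library's reads, ambiguous, not unique) were left out of library sizes and tests.

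Symbols came from the GENCODE annotation of GRCm38 and matched 53274 of 53465 identifiers. Members and lists were chosen with earlier results of these data known. The 6 naïve and 5 withdrawn mice, grouped by treatment label and title, were compared with edgeR 4.0.16 in R 4.3.3 (TMM, filterByExpr, quasi-likelihood test, Benjamini-Hochberg adjustment over 17093 genes). The study's own test, DESeq2 1.42.0, was an alternative. Calls needed an adjusted p no higher than 0.05 and a change beyond 0.6 on the log2 scale. A prior count of 2 entered log2 CPM. Exact permutation over mice tested single values. The text names all 9 members and, from each list, every called gene or else the 2 genes with the smallest p, plus the most abundant gene. A gene this rule selects is not reported here. The fits were tested on simulated data. Alternatives were another scaling, limma 3.58.1 voom, other filters, a replicate block and leaving out mice.

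At these depths 3 counts equal 0.140 to 0.369 CPM, and this limit covers counting error only. Mice are separate animals. Replicate libraries differed by more than sampling noise in all 25 pairs within a group.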

Additional observations from a re-analysis of the deposited data

Results flagged for a closer look

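In the withdrawn group, withdrawn mouse 4 stood far from the other 4 mice for Isg15, at 17.3 CPM, for Ifit1, at 102.9 CPM, and for Ifit3, at 41.9 CPM. Its gap to the nearest mouse was 0.831 of the group's range for Isg15, 0.784 for Ifit1 and 0.751 for Ifit3, each beyond the 95% limit of Dixon's test for 5 samples. The test assumes normal values and was run on CPM, not on log2 CPM, where these gaps are smaller parts of the range. In log2 CPM, Isg15 was 4.13 in withdrawn mouse 4, 1.66 in the next highest withdrawn mouse and -1.97 in the lowest. Among the 18 sets of values examined (9 genes in both groups), chance alone would give 0.9 on average if the sets were normal and independent. The 3 values come from 1 library, and no conclusion is drawn from the flags. No naïve set was beyond its limit.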

How the results depend on the processing

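Counts of called genes were the least stable values. Over all genes, 1 gene passed with edgeR, 362 with DESeq2, 137 with no low-count filter, 30 with at least 10 counts in every mouse and 37 with the adjusted p threshold at 0.1. There were 0 without the 3 mice with conflicting labels, and 0 to 193 when each mouse was left out, 193 being without withdrawn mouse 2. With alternatives chosen after seeing the data, DESeq2 called 420 without naïve mouse 5 and 157 without withdrawn mouse 4, and edgeR called 0 without both. Of the 9 response genes, 0 passed under each alternative with adjusted p, and 2 with an unadjusted p under 0.05. The filter of 10 counts in every mouse tested Stat2, Irf9 and Irf7 alone. Of the pathway lists, 0 genes passed with edgeR, 5 with DESeq2, 3 with no filter, 1 with 10 counts in every mouse, 0 to 3 when each mouse was left out (3 without withdrawn mouse 2), 6 with DESeq2 without naïve mouse 5 and 4 without withdrawn mouse 4.

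Ifitm3 and Bst2 kept a log2 fold change above 0 under every alternative run. When each mouse was left out, Ifnar1 ran from -0.082 to 0.43, Irf9 from -0.083 to 0.64, Isg15 from -0.41 to 1.37 and Ifit3 from -0.094 to 1.53, with the lowest value without naïve mouse 5 for Ifnar1 and without withdrawn mouse 4 for the others. DESeq2 gave -0.069 for Ifnar1 without naïve mouse 5, and -0.071 for Irf9, -0.39 for Isg15 and -0.069 for Ifit3 without withdrawn mouse 4. Without both mice, Ifnar1 was -0.082, Stat2 -0.020, Irf9 -0.084, Isg15 -0.54 and Ifit3 -0.35. Without the 3 mice with conflicting labels, which include withdrawn mouse 4, Stat2 was -0.26, Irf9 -0.29, Isg15 -0.54, Ifit3 -0.023 and Irf7 0.11. Limma voom gave -0.053 for Stat2 and -0.25 for Ifit1. Where a setting does not itself leave out a mouse, the cause was not tested.

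Replicate numbers do not pair the mice: deviations of same-numbered mice correlated at -0.20 to 0.18, and 1 of 5 numbers matched best with itself. With the replicate block, 0 genes passed over all genes and Isg15 was -0.065. Another scaling in edgeR moved the median of all genes by at most 0.033. Isg15, Ifit1, Ifit3, Ifitm3 and Ifnar1 had at most 3 counts in 1 or 2 mice each, which limits their precision. For the last 4 of these genes, that included naïve mouse 5, whose depth was above the median of the 11 libraries.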

Other observations

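Across the 11 mice, the genes outside the pathway lists whose log2 CPM was most like the mean log2 CPM of the 9 response genes were Hykk (Pearson r 0.967), Nbeal1 (0.965), Itga10 (0.952), Klf2 (0.941) and Ebf1 (0.936). All 5 were highest in withdrawn mouse 4, so the likeness over 11 mice, which share depth and library differences, is a description with no test. Klf2, a transcription factor of flow-exposed endothelium, ran from 0.474 to 41.4 CPM in naïve and from 9.07 to 142 CPM in withdrawn mice. Ebf1, known from B cells and mural cells, ran from 0 to 9.50 CPM in naïve and from 0.224 to 29.8 CPM in withdrawn mice. Of the pathway lists, the most alike were H2-D1 (0.905), Gbp2 (0.897), Trim25 (0.893), Ifih1 (0.876) and Ddx58 (0.854), also highest in withdrawn mouse 4. The mean log2 CPM of the 9 genes was 5.38 in that mouse, 0.427 in naïve mouse 5 and 2.20 to 3.93 in the other 9 mice.

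H2-K1, a classical heavy chain with close relatives that can share reads, had 28.4 ± 17.5 CPM in naïve and 76.9 ± 65.3 CPM in withdrawn mice, with an adjusted p of 0.707 by edgeR. H2-D1 had 77.7 ± 51.4 CPM in naïve and 167 ± 115 CPM in withdrawn mice, also with an adjusted p of 0.707 by edgeR.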
